A study of Mus musculus with 5 samples.

Results

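The genes of the collagen, laminin, nidogen and integrin families were followed across the cell classes of the mouse testis. All symbols of the feature list that read as a Col, Lama, Lamb, Lamc or Nid chain, or that start with Itga or Itgb, were taken: 88 of 27933 symbols. Of these, 84 encode chains, namely 44 collagen, 11 laminin, 2 nidogen and 27 integrin chains (18 alpha and 9 beta), and 4 carry a matching symbol but encode no chain. The measurement was droplet single-cell RNA sequencing of whole mouse testis labelled as synchronized, at 0, 144, 350.4, 556.8 and 763.2 h, with 1 library per time. The 0 h sample is titled Control and the later samples EP1, EP2, EP3 and EP4, an abbreviation that the labels do not explain. Sampling times were set to recurrences of stages VIII–IX in the epithelial cycle of the tubule, per the series' design text, and the series as a whole concerns Sertoli cell maturation. Of 2122 germ cells read at 0 h, however, 2087 were classed as undifferentiated-spermatogonia-like and 3 as early-meiotic-spermatocyte-like. Comparisons with 0 h are therefore not matched for stage. Strain, genotype, age and the synchronizing agent, which all groups may share, were not given in the sources used here, nor was the number of animals per library. Testes were digested with collagenase, the settled tubules were separated from the supernatant and trypsin then freed the cells, per the labels' protocols, a step that can remove cells from outside the tubules.

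Seminiferous tubules rest on a basement membrane, a thin sheet of type IV collagen and laminin joined by nidogens. Sertoli cells inside the tubule and peritubular myoid cells outside it both contribute to that sheet, while fibroblast-like stromal cells between the tubules lay down fibril collagens. Integrins, pairs of an alpha and a beta chain, hold cells to the matrix, and in the testis integrins also sit where Sertoli cells grip spermatids.

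Type IV collagen genes lie in head-to-head pairs, and both members of a pair were read out here. Per GENCODE M21, the Col4a1 start (chr8, minus strand, 11312826) and the Col4a2 start (plus strand, 11312805) overlap by 22 bases. Between the Col4a4 start (chr1, minus strand, 82586849) and the Col4a3 start (plus strand, 82586921) lie 71 bases, and between Col4a6 and Col4a5 on chromosome X lie 1308 bases. Because the results turn on these pairs, the promoter windows of Col4a1 and Col4a4 are shown (250 bases before to 50 bases after the RefSeq start, GRCm38.p6, minus strand, positions chr8:11312777-11313076 and chr1:82586800-82587099). Capitals mark the 78 bases that the Col4a1 window shares with the Col4a2 window, and in the Col4a4 window the 71 bases between the starts of Col4a4 and Col4a3.
Col4a1: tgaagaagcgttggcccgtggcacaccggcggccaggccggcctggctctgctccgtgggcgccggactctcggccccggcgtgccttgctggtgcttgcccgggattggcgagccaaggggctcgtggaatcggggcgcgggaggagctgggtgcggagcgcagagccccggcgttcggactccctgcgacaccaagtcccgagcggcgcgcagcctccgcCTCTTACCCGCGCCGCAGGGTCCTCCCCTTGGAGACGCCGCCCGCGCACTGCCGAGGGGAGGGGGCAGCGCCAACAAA
Col4a4: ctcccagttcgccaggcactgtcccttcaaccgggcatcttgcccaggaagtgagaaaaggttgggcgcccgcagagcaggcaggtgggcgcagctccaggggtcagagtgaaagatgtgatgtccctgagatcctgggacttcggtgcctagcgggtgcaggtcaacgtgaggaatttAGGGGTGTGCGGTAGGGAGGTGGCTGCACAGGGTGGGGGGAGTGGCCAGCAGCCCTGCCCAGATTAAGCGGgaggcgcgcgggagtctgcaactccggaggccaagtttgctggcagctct
On either strand, the letters GGGCGG, a match to the GC box, occur 1 time in the Col4a1 window, 3 times in that of Col4a2, 0 times in that of Col4a4 and 1 time each in those of Col4a5 and Col4a6; 35.7% of the 32851 RefSeq windows of this length hold them. CCAAT, also on either strand, occurs 1 time each in the windows of Col4a1, Col4a2 and Col4a5 and 0 times in those of Col4a4 and Col4a6, against 37.4% of all windows. In the windows shown the matches to the 2 motifs do not overlap. These are matches of letters in a fixed window and no record of binding.

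The libraries held 7441 to 11987 barcodes and 75578147 to 118147393 UMIs (unique molecular identifiers, each standing for 1 captured RNA molecule), with medians of 2864 to 7551 UMIs per barcode. Pairs of libraries shared 11 to 37 barcodes, at most 0.453% of the smaller. Clustering, from which the chains themselves were left out, gave classes named from marker genes: Sertoli-like cells (3139, 1303, 590, 48 and 16 in time order), peritubular-myoid-like cells (702, 392, 93, 42 and 51), stromal-like cells (552, 446, 9, 4 and 12) and germ cells (2122 to 10262). Sertoli-like cells held 12 or 13 of 14 Sertoli markers at 20 CPM or more up to 556.8 h, myoid-like cells all 9 of theirs at every time, and stromal-like cells all 10 of theirs at 0 and 144 h. Levels are UMIs of a gene per 1000000 UMIs (CPM) of all cells of a class in 1 library. With 1 library per time no test was possible and no difference has a replicate check; intervals are exact 95% intervals that cover counting error only. Since UMI levels are not per length, levels are compared between cells and times for a gene, not between genes. A gene passed where its mean CPM in a comparison was at least 10 and at least 20 UMIs were seen, and it was called where it was at least 2-fold apart. Classes with under 20 cells in a library gave no value, so Sertoli-like cells at 763.2 h are given only with cells of up to 50% mitochondrial UMIs (2987, 1538, 846, 107 and 77 cells in time order).

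In myoid-like and stromal-like cells the chains made up a far larger part of the RNA than in Sertoli-like or germ cells. All chains and matching symbols together took 12731, 15315, 16185, 12405 and 10525 CPM in myoid-like cells in time order, and 15531 CPM at 0 h and 17577 CPM at 144 h in stromal-like cells. In Sertoli-like cells they took 1613, 1278, 839 and 933 CPM at 0, 144, 350.4 and 556.8 h, and in germ cells 742, 351, 244, 622 and 738 CPM. In all, 53 chains (30 collagen, 7 laminin, 2 nidogen and 14 integrin) reached 20 CPM in at least 1 of the 4 classes: 24 were highest in myoid-like, 20 in stromal-like, 5 in Sertoli-like and 4 in germ cells. The 5 highest in Sertoli-like cells were Col18a1, Col27a1, Lama1, Itga6 and Itgb5; the 4 highest in germ cells were Itgae, Itgad, Col20a1 and Col22a1. The other 31 chains stayed at or below the 19.1 CPM of Lama3 in Sertoli-like cells.

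**Figure D1:**
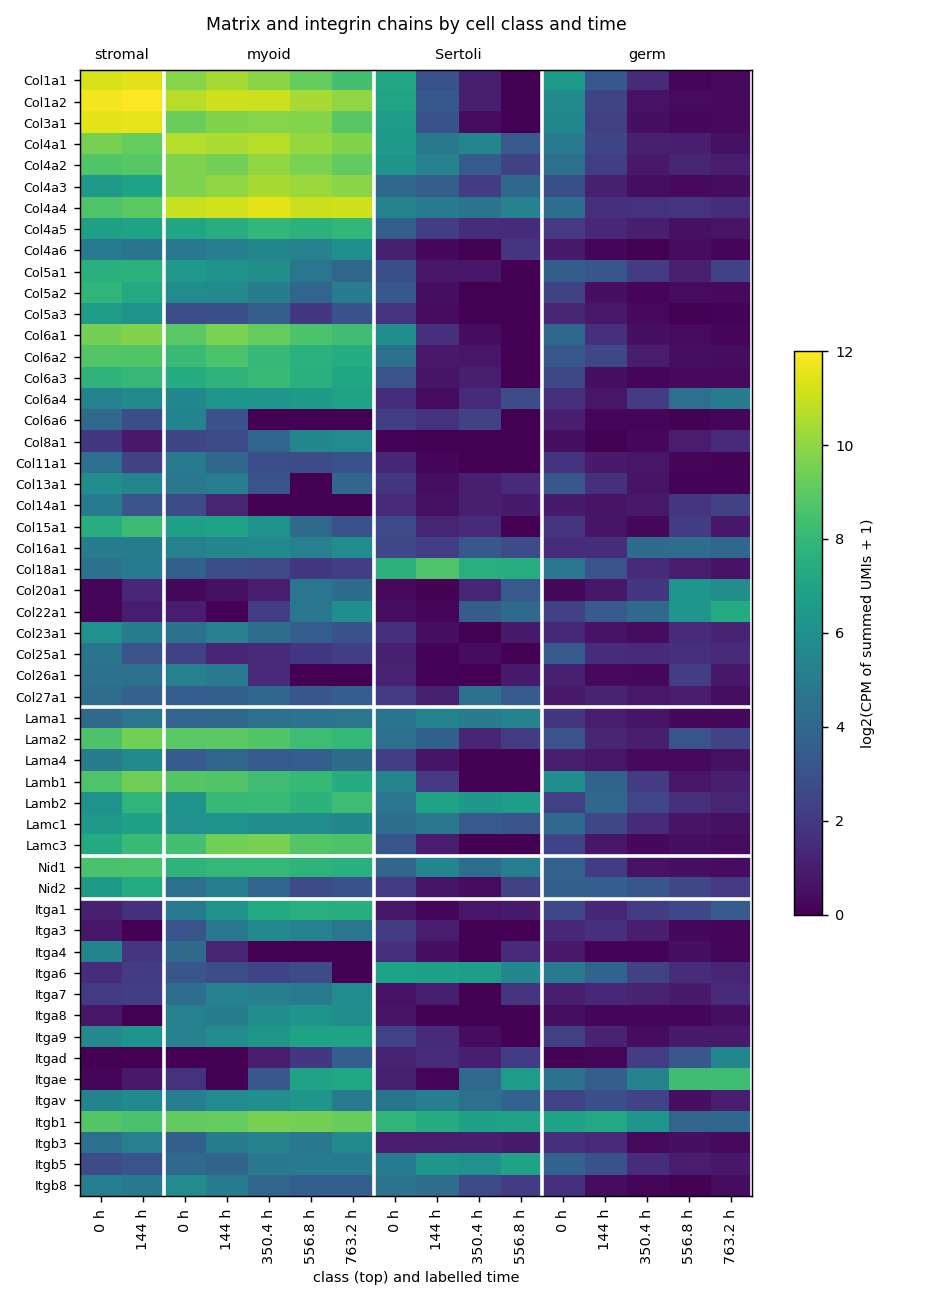
Levels of the 53 chains that reached 20 CPM, one row per chain, in stromal-like cells at 0 and 144 h, myoid-like cells at 5 times, Sertoli-like cells at 4 times and germ cells at 5 times (columns); colour is log2(CPM + 1). Most rows are brightest, that is highest, in the stromal-like and myoid-like columns; Col18a1, Itga6, Itgb5 and Lama1 stand out in the Sertoli-like columns, and Itgae, Col22a1 and Col20a1 in the late germ cell columns.

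Myoid-like cells were set against Sertoli-like cells to see on which side of the tubule wall each chain was read. At 0 h 40 of the 84 chains passed, and 34 were at least 2-fold higher in myoid-like cells, 3 lower and 3 in between, where 28.5% of the 8668 genes that passed were called, 12.2% higher and 16.3% lower; the median log2 ratio was 3.44 for the chains and −0.27 for all genes. At 144 h 34 of 40 chains were higher and 4 lower, against 18% and 25.6% of all genes (43.5% called either way), with medians of 6.01 and −0.26. Chains of the basement membrane network were among the higher. Col4a3 and Col4a4, of the alternative type IV network known from the kidney glomerulus, had 814 and 2057 CPM in myoid-like cells, against 15.2 and 40.3 CPM in Sertoli-like cells at 0 h. Col4a1 and Col4a2, of the network found in nearly all basement membranes, had 1633 and 829 CPM in myoid-like cells, against 87.2 and 72.4 CPM in Sertoli-like cells. Red-blood-like cells of that library, which should lack these chains, had 32.4, 62.8, 75.4 and 51.6 CPM of Col4a3, Col4a4, Col4a1 and Col4a2 (medians of 4851 UMIs per Sertoli-like cell and 2439.5 UMIs per red-blood-like cell). The Sertoli-like levels of Col4a3 and Col4a4 at 0 h thus lay below this background and those of Col4a1 and Col4a2 near it, so no exact fold is read from them. The red-blood-like cells also had 126 CPM of Sox9, a Sertoli cell gene, and 505 CPM of Acta2, a myoid cell gene. Sertoli-like cells had 448 and 114 CPM of these at 0 h. How well red-blood-like levels stand for the background of a Sertoli-like cell was not tested. At 144 h the ratios of myoid-like over Sertoli-like cells were 88.7 and 75.5 for Col4a3 and Col4a4, 51.4 and 18.6 for Col4a1 and Col4a2, and 50.5 and 193 for Col4a5 and Col4a6. Too few red-blood-like cells were found in that library to give the same background.

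Receptors parted the same classes. Itga1, the alpha chain of a collagen receptor, had 31.2 CPM in myoid-like and 0.736 CPM in Sertoli-like cells at 0 h, and Itga8, whose receptor binds nephronectin, 38.3 and 0.538 CPM. Itga6, the alpha chain of laminin receptors, ran the other way with 8.20 CPM in myoid-like and 123 CPM in Sertoli-like cells, a ratio of 0.0667 (0.0485 to 0.0894). Col18a1, a basement membrane collagen whose end piece is endostatin, did too: 12.03 CPM in myoid-like and 212 CPM in Sertoli-like cells at 0 h, then 6.46 and 413 CPM at 144 h. Itgb1, the beta chain shared by most matrix integrins, was 2.36-fold higher in myoid-like cells at 0 h and 3.32-fold at 144 h. Lama1, the alpha chain of embryonic and epithelial laminin, and Itgb5, a partner of Itgav that binds vitronectin, were lower in myoid-like cells at 144 h, at ratios of 0.375 and 0.177.

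In Sertoli-like cells, 23 chains passed between 144 and 0 h; 3 were at least 2-fold higher at 144 h, 8 lower and 12 in between. Of the 8297 genes that passed, 18.8% were called, 9.98% higher and 8.86% lower, and the median log2 ratio was −0.41 for the chains and 0.03 for all genes. The 3 higher chains were Lamb2, Nid1 and Itgb5. The 8 lower chains were Col1a1, Col1a2, Col3a1, Col4a1, Col6a1, Col6a2, Lama3 and Lamb1.

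The laminin beta chains parted. Lamb2, the beta chain that in the kidney glomerulus takes the place of Lamb1 as the basement membrane matures, had 121 CPM at 144 h, against 24.8 CPM at 0 h, a ratio of 4.87 (4.51 to 5.25). Lamb1, the beta chain of early laminins, had 3.03 CPM at 144 h, against 42.7 CPM at 0 h, a ratio of 0.0710 (0.0563 to 0.0884). Different clusters held most Sertoli-like cells at the 2 times, so the values were also read cluster by cluster. Clusters 12 and 22 at 144 h (776 and 475 cells, medians of 19279 and 22995 UMIs) had 131 and 112 CPM of Lamb2, against 24.9 and 25.0 CPM in clusters 4 and 34 at 0 h (1103 and 352 cells, medians of 16129 and 6855 UMIs). Lamb1 had 1.42 and 2.56 CPM in clusters 12 and 22 at 144 h, against 34.3 and 28.4 CPM in clusters 4 and 34 at 0 h. The small cluster 73 at 144 h (36 cells) had 42.7 CPM of Lamb2 and 22.8 CPM of Lamb1. At 0 h the shallow cluster 2 (1463 cells, median 2700 UMIs) had 26.0 CPM of Lamb2 and 101 CPM of Lamb1, cluster 59 (180 cells) 21.8 and 18.4 CPM, and cluster 72 (41 cells) 11.03 and 62.5 CPM. Over these clusters the Lamb2 levels of the 2 libraries did not overlap, whereas those of Lamb1 did, through cluster 73. Lamb1 also had 53.6 CPM in red-blood-like cells at 0 h, above its Sertoli-like level there, while Lamb2 had 9.92 CPM. Of the other laminin chains that passed, Lama1 had 40.4 CPM at 144 h, against 24.3 CPM at 0 h, Lamc1, the common gamma chain, 27.0 CPM, against 19.5 CPM, and Lama2 12.2 CPM, against 19.9 CPM, all under 2-fold. Lama3, the alpha chain of epithelial laminin, was called lower at 6.63 CPM, against 19.1 CPM. Below the filter, Lamc3 had 0.973 CPM at 144 h, against 8.35 CPM at 0 h, and Lama4 0.613 CPM, against 3.74 CPM. Nid1, the nidogen that joins laminin to type IV collagen, had 45.0 CPM at 144 h, against 14.8 CPM at 0 h, but was uneven among clusters: 10.8 and 94.2 CPM in clusters 12 and 22, against 5.57 and 5.08 CPM in clusters 4 and 34 and 65.8 CPM in the shallow cluster 2 at 0 h. With each cell given the same weight the log2 ratio of Nid1 was 0.38, against 1.60 for summed UMIs.

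Fibril and beaded-filament collagens gave the largest differences in Sertoli-like cells, beside large differences in depth and free RNA. Col1a1, the main chain of type I collagen, had 7.03 CPM at 144 h, against 146 CPM at 0 h, and Col1a2 8.87 CPM, against 129 CPM. Col3a1, of type III collagen, had 7.21 CPM, against 98.6 CPM, and Col6a1, of the beaded filaments, 2.09 CPM, against 57.2 CPM. At 0 h the level differed among clusters: Col1a1 had 835 CPM in cluster 2 (1463 cells, median 2700 UMIs), 14.9 CPM in cluster 4 and 10.3 CPM in cluster 34. It also had 595 CPM in the 414 red-blood-like cells of the 0 h library, which should lack it, and Col1a2 and Col3a1 397 and 292 CPM. Dcn, a stromal marker, stood in Sertoli-like cells at 0.159% of its stromal-like level at 144 h and at 3.23% at 0 h; for Col1a1 the shares were 0.248% and 5.84%. With clusters of a median of at least 5000 UMIs alone, the log2 ratios of Col1a1, Col1a2 and Col3a1 were −2.75, −2.18 and −2.07, against −4.38, −3.86 and −3.77 with all clusters. How much of these differences came from free RNA was not tested.

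Col4a1 had 27.4 CPM in Sertoli-like cells at 144 h, against 87.2 CPM at 0 h (ratio 0.314, 0.290 to 0.340), and its partner Col4a2 38.4 CPM, against 72.4 CPM (0.531, 0.494 to 0.570). At 0 h both stood near their red-blood-like levels given above, and with clusters of a median of at least 5000 UMIs alone the log2 ratio of Col4a1 was −1.08, against −1.67 with all clusters. Of the integrins 5 passed and 1 was called, a share near that of all genes. Itgb5 had 78.2 CPM at 144 h, against 31.1 CPM at 0 h, a ratio of 2.51 (2.34 to 2.70). Its partner Itgav had 34.2 CPM, against 24.3 CPM, Itga6 116 CPM, against 123 CPM, and Itgb1 171 CPM, against 234 CPM, so these 3 stayed under 2-fold. Col18a1, at 413 CPM, against 212 CPM, came just short of the 2-fold call with a ratio of 1.95 (1.89 to 2.004). Slc19a1, a folate carrier, overlaps the end of Col18a1 on the other strand (chr10:77032241-77061002) and had 4.76 CPM at 144 h, against 6.26 CPM at 0 h; use of strand in counting was not given in the sources used here.

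**Figure D2:**
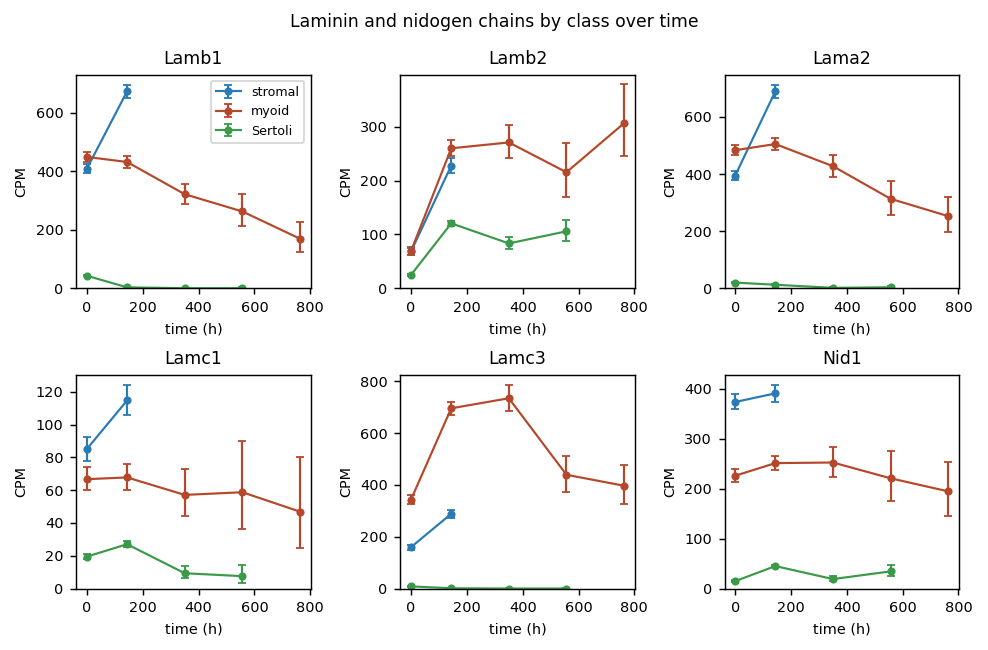
Levels (CPM, each panel with its own axis from 0) of Lamb1, Lamb2, Lama2, Lamc1, Lamc3 and Nid1 against time (h) in stromal-like, myoid-like and Sertoli-like cells; points are 1 library each and bars are exact 95% counting intervals. Lamb2 lies higher at 144 h than at 0 h in all 3 classes, whereas Lamb1 is lower at 144 h in Sertoli-like cells (3.03 against 42.7 CPM) and higher in stromal-like cells (674 against 409 CPM).

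Later Sertoli-like values rest on fewer cells. At 350.4 h 523 of 590 cells lay in the shallow cluster 20 (median 1304 UMIs) and 59 in the deep cluster 64 (median 31036 UMIs). Between 350.4 and 144 h 15 chains passed, 1 was higher and 5 lower (Col18a1, Nid1, Lamc1, Itgb8 and Col4a2), against 8.05% and 4.77% of 8381 genes (12.8% called). Col18a1 had 185 CPM at 350.4 h, against 413 CPM at 144 h; in cluster 64 alone it had 222 CPM. With clusters of a median of at least 5000 UMIs alone the log2 ratios of Col18a1 and Nid1 were −0.91 and −0.90 and fell short of 2-fold. Itgb8, a partner of Itgav known for activating latent TGF-beta, had 5.99 CPM at 350.4 h, against 18.8 CPM at 144 h. Col27a1, a fibril collagen, was the higher chain, with 21.98 CPM at 350.4 h, against 1.08 CPM at 144 h, a ratio of 20.3 (13.0 to 32.4). With cells of under 10% mitochondrial UMIs this ratio turned to a log2 value of −0.21. Between 556.8 and 350.4 h 13 chains passed, 1 was higher and 3 lower (Itga6, Col27a1 and Col4a1), against 11.7% and 4.24% of 8854 genes (15.9% called). The higher chain was Itgae, at 97.3 CPM at 556.8 h, against 15.98 CPM at 350.4 h. With each cell given the same weight 0 of these 4 called chains stayed 2-fold apart, and Col27a1 changed sign. All 4 stayed so with at least 5000 UMIs per cell. Itgae is a germ cell transcript in these libraries (321 CPM in germ cells at 556.8 h), and Ldhc, an enzyme of spermatocytes and spermatids, stood in Sertoli-like cells at 25.7% of its germ cell level at 556.8 h and at 19.5% at 350.4 h. Whether the 2 transcripts entered the same way was not tested.

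With cells of up to 50% mitochondrial UMIs all 5 times could be followed. Itgb5 had 31.2, 78.7, 85.0, 127 and 184 CPM in time order, higher at each time than at the time before. Lamb2 had 24.4, 122, 106, 93.9 and 76.1 CPM, above the 0 h value at every later time. Lamb1 had 39.3, 2.66 and 0.0993 CPM at the first 3 times and 0 UMIs at 556.8 and 763.2 h, where 3 counts would give 1.204 and 1.92 CPM. The low Lamb1 and high Lamb2 of 144 h were thus also read in the 3 later libraries. Col4a1 had 81.2, 27.4, 37.4, 7.22 and 1.28 CPM, and Col4a2 68.8, 38.4, 10.3 and 3.61 CPM and 0 UMIs at 763.2 h. Col18a1 had 215, 418, 210, 193 and 61.4 CPM, highest at 144 h and lowest at 763.2 h. Nid1 had 11.1, 45.1, 22.2, 55.4 and 48.0 CPM, Lama1 24.6, 41.3, 36.9, 36.5 and 49.3 CPM, and Itga6 125, 119, 115, 53.4 and 82.5 CPM. Between 763.2 and 0 h 23 chains passed, 6 were higher and 9 lower, against 20.6% and 16.5% of 8912 genes (37.2% called). The higher chains were Itgb5, at 5.90-fold (5.16 to 6.72), Nid1 at 4.34-fold, Lamb2 at 3.13-fold, Lama1 at 2.004-fold, Col27a1 at 16.4-fold and Itgae, whose germ cell level stands above. The lower chains included Col18a1 at a ratio of 0.286 (0.231 to 0.350), Col4a1 at 0.0158 and Itgb8 at 0.0547. Between 763.2 and 556.8 h, 6.4% of 8825 genes were called (3.78% higher and 2.62% lower), and of the chains Col27a1 was higher (51.2 CPM, against 13.2 CPM) and Col18a1 lower (61.4 CPM, against 193 CPM).

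**Figure D3:**
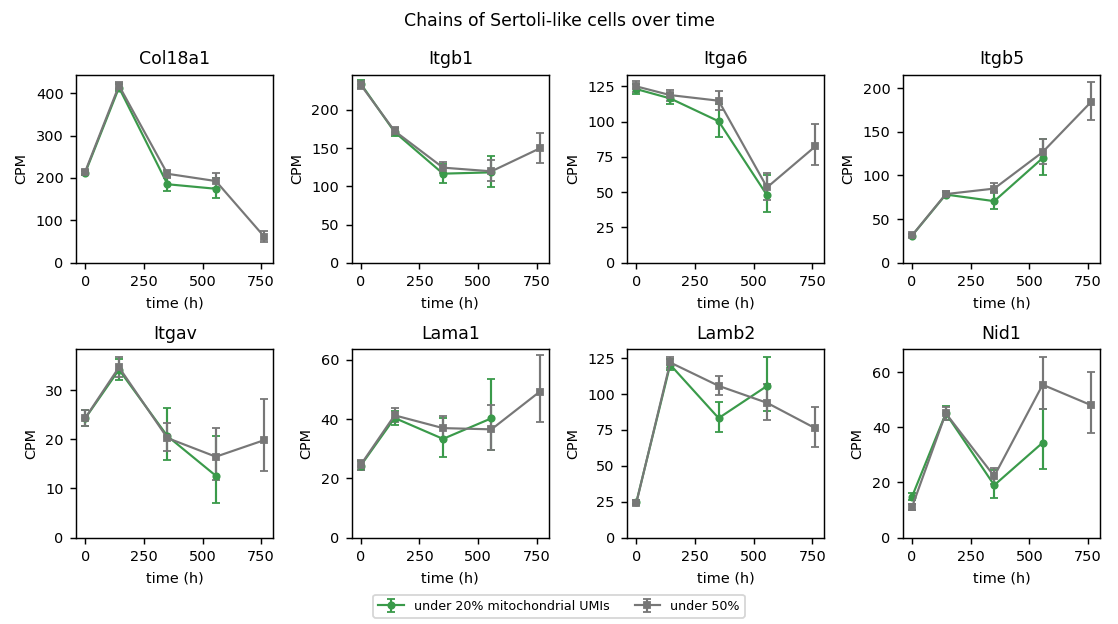
Levels (CPM, each panel with its own axis from 0) of Col18a1, Itgb1, Itga6, Itgb5, Itgav, Lama1, Lamb2 and Nid1 in Sertoli-like cells against time (h), with cells of under 20% and of under 50% mitochondrial UMIs; points are 1 library each and bars are exact 95% counting intervals. Itgb5 is higher at each later time in the series with up to 50% mitochondrial UMIs, from 31.2 CPM at the first time to 184 CPM at the last, while Col18a1 peaks at 144 h (418 CPM).

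In myoid-like cells Col4a1 to Col4a4 stayed within 2-fold of their 0 h level at each later time. Col4a4 had 2057, 2313, 2867, 2123 and 2229 CPM in time order, and Col4a3 814, 1014, 1385, 1161 and 923 CPM. Col4a1 had 1633, 1408, 1685, 1105 and 840 CPM, and Col4a2 829, 714, 1029, 775 and 552 CPM. Between 144 and 0 h 44 chains passed, 6 were higher and 1 lower, against 5.47% and 4.74% of 8340 genes (10.2% called), with a median log2 ratio of 0.33 for the chains and 0.06 for all genes. The 6 higher chains were Lamb2, Lamc3 and the integrin chains Itga1, Itga3, Itga7 and Itgb3; the lower one was Col6a6. Of 11 integrin chains that passed, 4 were higher, and their median log2 ratio was 0.70. The other 7 stayed within 2-fold.

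Lamb2 had 260 CPM at 144 h, against 68.9 CPM at 0 h, in myoid-like cells, a ratio of 3.77 (3.36 to 4.25). Lamc3, a gamma chain known in the testis from the contact of spermatids with Sertoli cells, had 696 CPM, against 344 CPM; its level in Sertoli-like cells was 0.973 CPM at 144 h and 8.35 CPM at 0 h. Itga3, the alpha chain of a laminin receptor, had 27.4 CPM, against 7.65 CPM, and Itgb3, whose receptor with Itgav binds vitronectin, 33.2 CPM, against 12.2 CPM. Itga1 had 67.5 CPM, against 31.2 CPM, and Itga7, the laminin receptor chain of muscle, 39.2 CPM, against 19.3 CPM. At 0 h most of these cells lay in the shallow cluster 24 (443 cells, median 2752 UMIs), and 247 in the deep cluster 52 (median 13743 UMIs), whereas 383 of 392 cells at 144 h lay in cluster 21 (median 11823 UMIs). With deep clusters alone, Lamb2, Itga3 and Itgb3 kept log2 ratios of 1.60, 1.43 and 1.23, but Itga1, Itga7 and Lamc3 had 0.72, 0.64 and 0.63 and fell short of 2-fold. Only 4 of the 7 called chains stayed 2-fold apart with a limit of 10% or 50% mitochondrial UMIs. The same count held without removal of doublets and at clustering resolution 1. All 7 stayed so with each cell weighing the same and with 5% free RNA subtracted. Lamb1, by contrast with Sertoli-like cells, had 432 CPM at 144 h, against 450 CPM at 0 h, a ratio of 0.961 (0.905 to 1.02).

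Integrin chains of myoid-like cells went further apart over the later times. Itga1 had 31.2, 67.5, 153, 190 and 177 CPM in time order, and between 350.4 and 144 h it was the 1 higher chain of the 43 that passed, with 5 lower, against 4.54% and 2.69% of 8387 genes (7.24% called). Itga9, whose receptor binds tenascin and VCAM1, had 39.4, 53.9, 79.6, 123 and 123 CPM. Itgb1, the shared beta chain, had 552, 568, 749, 719 and 595 CPM and stayed within 2-fold of 0 h at every time. The alpha chain Itgav had 34.6, 56.2, 64.0, 81.1 and 28.9 CPM and did so at every time but 556.8 h. Itga8 had 38.3, 33.0, 60.6, 72.7 and 61.3 CPM, and Itgb8 53.6, 33.0, 14.7, 11.2 and 10.8 CPM, lower at each time than at the time before. Between 763.2 and 0 h 46 chains passed, 11 were higher and 10 lower, against 23.1% and 15.7% of 8937 genes (38.8% called), a share of chains close to that of all genes. By family, 6 of 11 integrin chains were higher and 1 lower, and 4 of 26 collagen chains were higher and 7 lower. Itga1 was 5.67-fold higher (4.04 to 7.83), Itgb3 4.14-fold, Itga3 3.30-fold, Itga9 3.12-fold and Itga7 2.80-fold. The sixth integrin chain was Itgae, at 141 CPM at 763.2 h, against 2.37 CPM at 0 h; Ldhc stood in myoid-like cells at 44.3% of its germ cell level at 763.2 h. Pelo, a gene of ribosome rescue, lies inside Itga1 on the same strand (chr13:115088355-115090186), and so does the gene model Gm49395, so that reads could be split between them; Pelo had 26.1, 32.5, 45.9, 58.7 and 46.9 CPM in myoid-like cells in time order. Itga1 itself had 9.84 CPM in germ cells at 763.2 h, against 177 CPM in myoid-like cells.

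**Figure D4:**
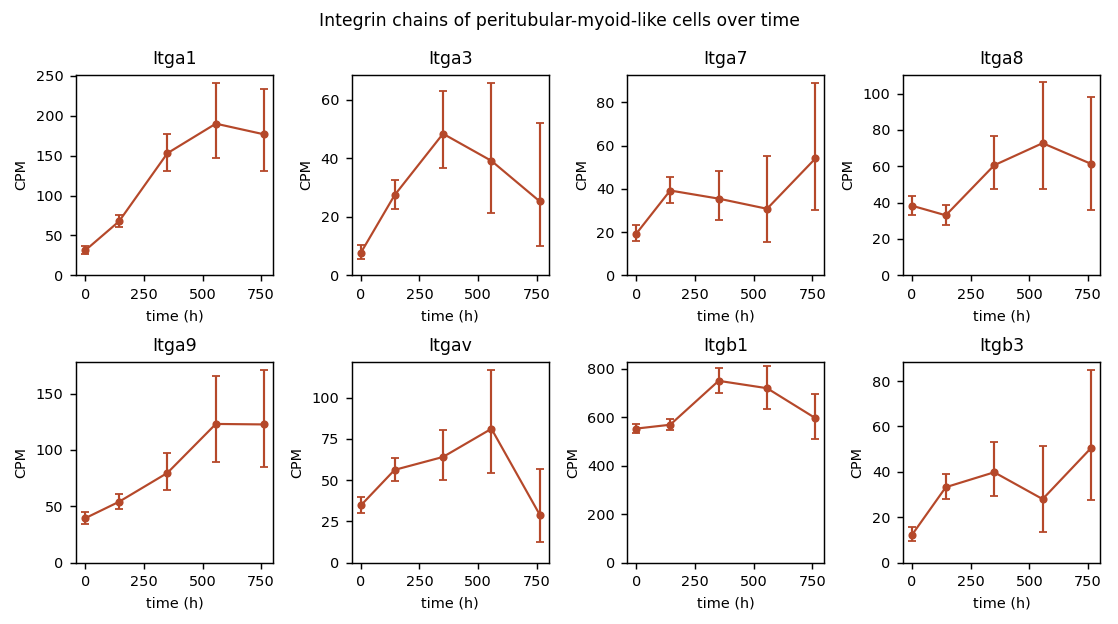
Levels (CPM, each panel with its own axis from 0) of 8 integrin chains in peritubular-myoid-like cells against time (h); points are 1 library each and bars are exact 95% counting intervals. Itga1 and Itga9 are higher at 556.8 h (190 and 123 CPM) than at 0 h (31.2 and 39.4 CPM), while Itgb1 stays between 552 and 749 CPM.

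The matrix chains of myoid-like cells moved in both directions. Col8a1, of a short-chain network collagen of vessel walls, had 4.74, 5.80, 13.8, 44.8 and 54.1 CPM, 11.4-fold higher (5.62 to 22.4) at 763.2 h than at 0 h. Col6a4, of the beaded filaments, had 48.1, 81.8, 75.3, 92.3 and 119 CPM, and Col4a6 27.9, 34.8, 44.1, 39.2 and 64.9 CPM, beside its partner Col4a5 with 130, 177, 242, 210 and 249 CPM. Lamb2 stayed above its 0 h value, with 68.9, 260, 271, 215 and 307 CPM, while Lamb1 had 450, 432, 322, 263 and 170 CPM, lower at each time than at the time before. Lama2, the alpha chain of muscle laminin, had 483, 505, 427, 313 and 252 CPM, Lamc1 66.7, 67.8, 57.1, 58.7 and 46.9 CPM, and Nid1 226, 251, 253, 221 and 195 CPM, within 2-fold of 0 h at every time. Col15a1, a multiplexin of basement membranes, had 112, 125, 69.2, 16.8 and 7.21 CPM, and Col5a1, a regulator of fibril width, 87.1, 67.8, 59.7, 25.2 and 14.4 CPM. Col26a1, known from testis and ovary, had 37.7, 28.5 and 1.73 CPM and then 0 UMIs, and Col6a6 41.4 and 7.13 CPM and then 0 UMIs. Myoid-like cells held 357530 and 277252 UMIs in all at 556.8 and 763.2 h. There 3 counts would give a level above the 7.13 CPM of Col6a6 at 144 h. The 0 UMIs at those times therefore do not show a level below it. Col1a1 had 914, 1323, 926, 579 and 357 CPM, lower at 763.2 h than at 0 h at a ratio of 0.391 (0.317 to 0.477). Red-blood-like cells had 595 CPM of Col1a1 at 0 h, and at 763.2 h myoid-like cells held the share of Ldhc given above. How much free RNA moved the myoid-like levels of these matrix chains was not tested. Between 556.8 and 350.4 h 39 chains passed, 2 were higher (Itgae and Col8a1) and 3 lower (Col5a1, Col5a2 and Col15a1), against 13.2% and 8.64% of 7990 genes (21.8% called). Between 763.2 and 556.8 h, with 51 and 42 cells, 31 passed, 1 was higher (Col22a1, a germ cell transcript here) and 1 lower (Itgav), against 8.79% and 4.14% of 5220 genes (12.9% called). The late myoid-like cells lay mostly in another cluster, number 66, than those of 144 and 350.4 h.

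Of the 4 classes, stromal-like cells had the highest levels of the type I, III and V fibril collagens. Stromal-like cells over myoid-like cells at 0 h gave 48 chains that passed, 14 higher and 9 lower, against 5.1% and 6.8% of 8336 genes (11.9% called). Col5a3 had 104 CPM in stromal-like and 6.38 CPM in myoid-like cells, Col3a1 2933 and 607 CPM, Col1a1 2502 and 914 CPM, and Col5a2 228 and 55.6 CPM. Col5a3 and Col5a2 are chains of type V collagen, which starts and limits fibrils. Nid2, the second nidogen, had 92.1 and 20.2 CPM, and Lama4, the alpha chain of vessel laminin, 32.2 and 10.0 CPM, whereas Nid1 (374 and 226 CPM), Lama2 (394 and 483 CPM) and Lamb1 (409 and 450 CPM) stayed within 2-fold. Of the type IV chains, Col4a3 (85.6 and 814 CPM) and Col4a4 (418 and 2057 CPM) were lower in stromal-like cells at ratios of 0.105 and 0.203, Col4a1 and Col4a2 stood at 0.454 and 0.512, and Col4a5 and Col4a6 at 0.860 and 1.03. The integrin chains Itga1 (1.11 and 31.2 CPM), Itga8 (0.634 and 38.3 CPM) and Itga7 (3.17 and 19.3 CPM) were lower in stromal-like cells. The transmembrane collagens Col13a1 (57.1 and 27.0 CPM) and Col23a1 (66.6 and 21.9 CPM) were higher, while the beaded-filament chains Col6a1 (730 and 489 CPM), Col6a2 (437 and 289 CPM) and Col6a3 (225 and 171 CPM) and the fibril-associated Col16a1 (31.4 and 37.2 CPM) stayed within 2-fold. At 144 h 9 of 43 chains were higher and 8 lower, against 7.5% and 5.69% of 8520 genes (13.2% called), and Itga3 and Itga8 had 0 UMIs in stromal-like cells, where 3 counts would give 0.577 CPM, and 27.4 and 33.0 CPM in myoid-like cells.

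Between 144 and 0 h 44 chains passed in stromal-like cells, 1 was higher and 5 lower, against 4.56% and 1.48% of 8425 genes (6.04% called); the median log2 ratio was 0.15 for the chains and 0.17 for all genes. The higher chain was again Lamb2, at 228 CPM at 144 h, against 68.3 CPM at 0 h, a ratio of 3.33 (2.98 to 3.73). Different clusters held most stromal-like cells at the 2 times: cluster 28 at 144 h (393 cells) and cluster 30 at 0 h (364 cells). Lamb2 had 234 CPM in cluster 28 at 144 h. In cluster 30 it had 144 CPM at 144 h (32 cells), against 69.8 CPM at 0 h. Lamb1 had 674 CPM, against 409 CPM, Lama2 690 CPM, against 394 CPM, and Nid2 165 CPM, against 92.1 CPM, all under 2-fold. Lamb2 was thus at least 2-fold higher at 144 h in Sertoli-like, myoid-like and stromal-like cells, and it stayed so under each of the other settings tried. In Leydig-like cells it had 65.3 CPM at 144 h, against 38.5 CPM at 0 h, short of 2-fold. These differences share the same pair of libraries. Lamb2 in undifferentiated-spermatogonia-like cells of those libraries had 3.54 CPM at 144 h and 3.83 CPM at 0 h. The lower chains were Itga4, the alpha chain of a fibronectin and VCAM1 receptor, with 2.50 CPM, against 41.1 CPM (ratio 0.0609, 0.0320 to 0.106), and the collagens Col11a1, Col14a1, Col25a1 and Col6a6, at ratios of 0.212, 0.266, 0.308 and 0.378. Itga4 had 1.25 CPM in cluster 28 at 144 h, but in cluster 30 it had 19.8 CPM at 144 h (7 UMIs), against 42.4 CPM at 0 h. The ratio of Itga4 thus depended on which cluster held the cells. Col11a1 belongs to a minor fibril collagen and Col14a1 to a collagen that coats fibrils; Col25a1 spans the cell membrane. The main fibril chains stayed within 2-fold: Col1a1 had 2834 CPM, against 2502 CPM, Col1a2 4123 CPM, against 3494 CPM, and Col3a1 3027 CPM, against 2933 CPM.

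Sertoli-like cells were also set against germ cells of the same library. At 0 h 23 chains passed, 17 were higher in Sertoli-like cells and 1 lower (Itgae), against 22.4% and 18.4% of 8683 genes (40.7% called), and at 144 h 11 of 12 were higher and 0 lower, against 23.8% and 30.6% of 8853 genes (54.3% called). At 144 h Col18a1 was 56.8-fold, Lama1 42.5-fold, Nid1 13.5-fold, Itgb5 10.9-fold, Itga6 8.46-fold and Lamb2 8.35-fold higher in Sertoli-like cells. Itgb1 was close to even, with 171 CPM in Sertoli-like cells and 149 CPM in germ cells, a ratio of 1.15. Of the 17 chains at 0 h, fibril and beaded-filament collagens such as Col1a2 (129 and 51.8 CPM) stand beside the free RNA values given above. Without removal of doublets the ratios of Col1a2 and Col3a1 changed sign, and 12 of the 18 called chains stayed 2-fold apart. Col4a3, Col4a4 and Lama2, at 15.2, 40.3 and 19.9 CPM in Sertoli-like cells, also lay below their red-blood-like levels of 32.4, 62.8 and 29.1 CPM. Others of the 17 lay above theirs, such as Col18a1 with 212 CPM, against 60.9 CPM.

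Among germ cells, the chains followed the stage of the cell. Undifferentiated-spermatogonia-like cells, the stem and progenitor stage, had 64.2, 52.9, 71.1 and 94.4 CPM of Lamb1 at 0, 144, 350.4 and 763.2 h (2087, 325, 94 and 30 cells), 31.2, 37.3, 30.7 and 36.8 CPM of Itga6, and 122, 115, 104 and 101 CPM of Itgb1. Itga6 and Itgb1 are textbook surface markers of spermatogonial stem cells, and here both readings stayed level over time in these cells. Red-blood-like cells at 0 h had 35.7 CPM of Itga6, 120 CPM of Itgb1 and 53.6 CPM of Lamb1. The 0 h readings of these 3 chains thus lay near that background, and the part of free RNA in them was not tested. Between 144 and 0 h 16 chains passed in them, 1 was higher and 6 lower, against 1.52% and 2.39% of 8338 genes (3.91% called); the higher was Nid2 (26.2 CPM, against 11.9 CPM, ratio 2.21, 1.85 to 2.64). The 6 lower were Col1a1, Col1a2, Col3a1, Col4a1, Col4a2 and Col4a4, 6 collagens also read in red-blood-like cells at 0 h, where Col4a2 and Col4a4 had 51.6 and 62.8 CPM. Early-meiotic-spermatocyte-like cells over undifferentiated-spermatogonia-like cells at 144 h gave 9 chains that passed, 1 higher, 6 lower and 2 in between, against 20% and 18.7% of 8374 genes (38.7% called). Lamb2 was the higher, with 33.4 CPM in early-meiotic-like and 3.54 CPM in undifferentiated-spermatogonia-like cells, while Lamb1 had 2.35 and 52.9 CPM and Itga6 5.48 and 37.3 CPM. The laminin beta chains thus also parted between these germ cell stages.

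At 763.2 h all 6 germ cell stages could be read. Itgb1 had 101, 178, 112, 0.555, 2.27 and 1.04 CPM from undifferentiated and differentiating spermatogonia through early meiotic and pachytene or later spermatocytes to round and elongating spermatids, so it was low from pachytene on. Pachytene-like over early-meiotic-like cells, its ratio was 0.00494 (0.00268 to 0.00836); there 4 of 6 chains were higher and 2 lower, against 22.7% and 40% of 8426 genes (62.6% called). Itgae, a chain known from lymphocytes that bind E-cadherin, had 87.5, 64.4, 91.8, 475, 319 and 116 CPM. The gene of the kinase Haspin (Gsg2 in the files) lies inside Itgae on the other strand (chr11:73135485-73138294), and had 136, 139, 187, 810, 605 and 587 CPM in the same cells. Use of strand in counting was not given in the sources used here, so the reads of these 2 genes cannot be told apart with certainty. Ldhc had 1218 CPM in undifferentiated-spermatogonia-like cells at 763.2 h, against 6388 CPM in all germ cells of that library. At 144 h undifferentiated-spermatogonia-like cells had 4.12 CPM of Ldhc and 17.3 CPM of Itgae. The part of free RNA in the early-stage levels at 763.2 h was not tested.

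Spermatids held 3 further chains. Col22a1, a fibril-associated collagen of tissue junctions, had 32.2, 40.8, 44.8, 18.9, 386 and 262 CPM over the 6 stages, and Itgad, a leukocyte integrin chain, 9.21, 5.96, 8.601, 10.3, 96.6 and 6.24 CPM. Col20a1, another fibril-associated collagen, had 6.91, 5.96, 12.4, 4.32, 18.8 and 393 CPM. Itgad was thus highest in round and Col20a1 in elongating spermatid-like cells. At 144 h undifferentiated-spermatogonia-like cells had 5.84 CPM of Col22a1. The part of free RNA in its early-stage levels at 763.2 h was not tested. Round-spermatid-like over pachytene-like cells, 6 of 9 chains were higher and 1 lower, against 28.1% and 33.6% of 7478 genes (61.8% called), with Col22a1 20.4-fold (18.6 to 22.4) and Itgad 9.41-fold higher. Elongating over round, 1 of 6 chains was higher, Col20a1 at 20.9-fold (19.0 to 23.0), and 4 were lower, against 8.75% and 62.6% of 6230 genes (71.3% called). Col6a4 had 0, 5.47, 7.00, 28.6, 61.4 and 5.20 CPM over the stages. Cox6a2, a protein-coding gene, lies inside Itgad on the other strand (chr7:128205435-128206387). Uncharacterised transcripts are also annotated inside Itgad, Col22a1 and Col6a4 on the other strand (such as Gm16308 within Col22a1). Another overlaps the start of Col20a1 on the same strand. These overlaps add to the uncertainty of the levels.

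**Figure D5:**
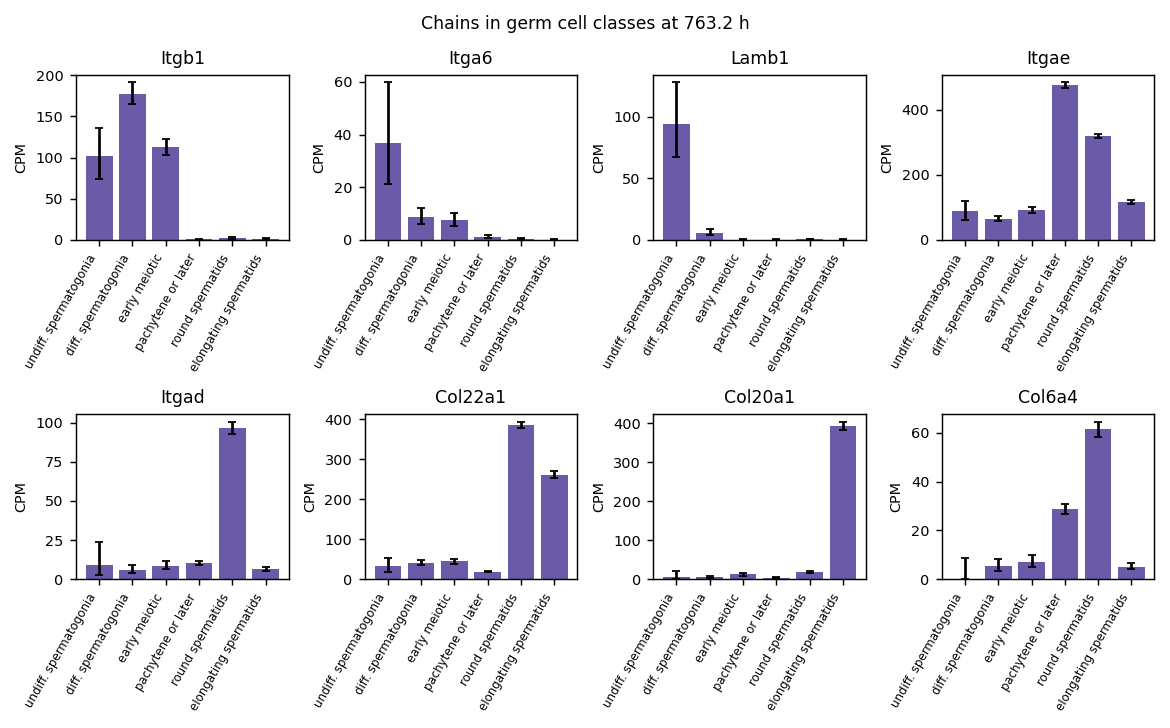
Levels (CPM, bars from 0, each panel with its own axis) of Itgb1, Itga6, Lamb1, Itgae, Itgad, Col22a1, Col20a1 and Col6a4 in 6 germ cell classes at 763.2 h, in order of development; bars are 1 library and error bars are exact 95% counting intervals. Itgb1, Itga6 and Lamb1 are highest in a spermatogonia-like class (178, 36.8 and 94.4 CPM), Itgae in pachytene-like cells (475 CPM), Itgad and Col22a1 in round-spermatid-like cells (96.6 and 386 CPM) and Col20a1 in elongating-spermatid-like cells (393 CPM).

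The rest of the matched symbols were low in these 4 classes or belonged elsewhere. Of the 31 chains under 20 CPM, 6 reached it in other somatic classes: the leukocyte chains Itgam, Itgb2 and Itgal in macrophage-like cells (highest 92.6, 162 and 39.1 CPM), and Itga5, the fibronectin receptor chain, Itgb4 and Lama5 in endothelial-like cells (76.5, 24.9 and 31.2 CPM). Of the 4 symbols that encode no chain, Itgb1bp1, an adaptor that binds the tail of Itgb1, had 19.8, 49.9, 92.1, 322 and 306 CPM in germ cells in time order, and Itgb3bp, a centromere protein also known as CENP-R, 27.2, 49.3, 164, 328 and 272 CPM. Itgbl1, a secreted protein with integrin-like repeats, had 39.7, 125, 229, 235 and 220 CPM in myoid-like cells and at most 3.66 CPM in stromal-like cells. Itgb1bp2, a protein of muscle, was near 0 throughout.

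Genes that make, join or bind the matrix were read from lists beside the chains. All counts are for 144 over 0 h, where 9.98% of all genes were higher and 8.86% lower in Sertoli-like cells (18.8% called), 5.47% and 4.74% in myoid-like cells (10.2% called) and 4.56% and 1.48% in stromal-like cells (6.04% called). In Sertoli-like cells, of 24 genes of collagen processing 12 passed, 2 higher and 3 lower; Serpinh1, the collagen chaperone, had 24.8 CPM at 144 h, against 150 CPM at 0 h, and P4ha1, a prolyl hydroxylase, 124 CPM, against 49.0 CPM. Of 24 other matrix proteins 10 passed, 0 higher and 8 lower, with a median log2 ratio of −2.41, against 0.03 for all genes. The stromal matrix gene Dcn, no member of this list, had 185 CPM in red-blood-like cells at 0 h, beside its shares in Sertoli-like cells of 0.159% at 144 h and 3.23% at 0 h of the stromal-like level; the part of free RNA in this list was not tested. Of 15 proteases and inhibitors 8 passed, 3 higher and 3 lower: Timp2, an inhibitor of matrix proteases, had 402 CPM, against 54.4 CPM, and Mmp2, a collagen-cleaving protease, 0.577 CPM, against 37.6 CPM. In myoid-like cells 18 processing genes passed, 2 higher (Loxl1 and Loxl3, which cross-link elastin and collagen) and 0 lower, and of 16 other matrix proteins 3 were higher and 1 lower. Eln, elastin, had 1860 CPM at 144 h, against 709 CPM at 0 h, Fbln5, which helps assemble elastic fibres, 423 CPM, against 165 CPM, and Fn1, fibronectin, 55.5 CPM, against 175 CPM. In stromal-like cells 19 processing genes passed, 4 higher and 1 lower, and of 18 other matrix proteins 2 were higher and 2 lower, with Postn, periostin, at 7.12 CPM, against 83.7 CPM. Of 21 genes of integrin adhesion 16 passed in each class, with 3 higher in Sertoli-like and 2 each in myoid-like and stromal-like cells, and 0 lower. Cd151, a tetraspanin that holds laminin-binding integrins, was higher in all 3 classes, at ratios of 2.30 (2.21 to 2.38), 2.69 (2.21 to 3.28) and 2.73 (2.37 to 3.15) in Sertoli-like, myoid-like and stromal-like cells. Of 10 other matrix receptors 0 of 5 that passed in Sertoli-like cells were called, 1 higher and 1 lower of 8 in myoid-like cells and 0 of 8 in stromal-like cells.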

How the data were processed

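Raw UMI counts per gene and barcode were deposited by the authors, with Cell Ranger 3.0.2 as the writing software per the file headers. Per the submitters' processing notes, the build mm10 and Seurat 4.3.0.1 belong to the authors' processing, in roles not stated. Alignment settings and use of strand were not given in the sources used here. Cells with at least 1000 UMIs, at least 500 genes, under 20% mitochondrial UMIs and a Scrublet score under 0.25 (expected rate 0.08) were kept, 38209 in all. They were clustered in scanpy 1.11.5 (3000 variable genes without the chains and list genes, 40 principal components, 15 neighbours, Leiden partition at resolution 2 by python-igraph 0.11.9) into 79 clusters. Clusters were named from markers of 15 classes, so differences from the study's own classes may come from rebuilt names. Score limits and the doublet score were set after earlier results of these data were seen.

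Counts were summed per class and library and given as CPM. Ratios have exact conditional binomial intervals and levels exact Poisson intervals (95%, scipy 1.17.1); a floor of 3 counts stands for 0. Cells are not replicates, and with 1 library per time no test was made; the ratio and call were tested on simulated counts. The chains named with values reached 20 CPM in a library where their class held at least 30 cells. The members and lists were chosen with earlier results of these data known. Alternatives were other limits on mitochondrial UMIs (10%, 50%), UMIs per cell (5000) and doublets, resolution 1, equal weight per cell, 5% free RNA subtracted, no filter, a mean of 50 CPM and, added after seeing the data, clusters of a median of at least 5000 UMIs alone. Promoter windows came from RefSeq (60 of 84 chains matched) and gene positions from GENCODE M21 (84 of 84), both on GRCm38.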

Additional observations from a re-analysis of the deposited data

Results flagged for a closer look

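Of the cells of the 144 h library, 1111 were in clusters given no name and entered no comparison, most of them in 1 cluster of 1082 cells. The 9 chains listed here had 21.5 CPM or more in these unnamed cells, at least 3.17-fold the level in germ cells of the same library. They are not all that stood higher, since the nidogens together had 21.1 CPM, against 14.2 CPM in germ cells. Col18a1 had 227 CPM in the unnamed cells, 31.2-fold its germ cell level, Itgb5 55.2 CPM (7.71-fold), Itga6 49.3 CPM (3.59-fold) and Lamb2 45.8 CPM (3.17-fold). These are the chains that also stood out in Sertoli-like cells at that time. Col4a4 had 36.8 CPM (17.6-fold), Col4a1 29 CPM (6.12-fold), Col4a2 22.3 CPM (5.99-fold), Col1a2 22.7 CPM (5.12-fold) and Col3a1 21.5 CPM (5.58-fold). The median depth of the unnamed cells was 1663 UMIs, against 19978 UMIs in the Sertoli-like cells of the library. Whether they are Sertoli cells was not tested.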

How the results depend on the processing

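No paired analysis was possible because each time had 1 library. Of 79 alternative counts of chains at least 2-fold apart, 59 lay within 1.5 times the reported count and 20 did not. Without a filter on low values the counts were 52, 52 and 34 for Sertoli-like cells (144 over 0, 350.4 over 144 and 556.8 over 350.4 h), 21 for myoid-like and 18 for stromal-like cells (144 over 0 h), and at 0 h 70 for myoid-like over Sertoli-like, 39 for stromal-like over myoid-like and 52 for Sertoli-like over germ cells, where the reported counts were 11, 6, 4, 7, 6, 37, 23 and 18. With a mean of at least 50 CPM they were 6, 1, 2, 2, 1, 19, 11 and 5 in the same order, since fewer genes enter. With each cell given the same weight Sertoli-like cells gave 20 (144 over 0 h) and 13 (350.4 over 144 h), and with under 10% mitochondrial UMIs 13 (350.4 over 144 h); without removal of doublets stromal-like cells gave 10. The cause of these shifts was not tested. Sertoli-like cells at 556.8 h gave no value with under 10% mitochondrial UMIs, since 1 cell remained.

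The filters on low values cannot alter a ratio. Of 260 values of the 33 called ratios (27 chains, 5 comparisons between times) under the other settings, 164 stayed within the counting interval of the reported ratio. Of the rest, 94 lay outside it and 2 changed sign, both for Col27a1 in Sertoli-like cells. Its log2 ratio was −0.21 between 350.4 and 144 h with under 10% mitochondrial UMIs. Between 556.8 and 350.4 h it was 0.16 with each cell weighing the same. Among comparisons of classes at 0 h, Col1a2 and Col3a1 changed sign in Sertoli-like over germ cells without removal of doublets. In myoid-like cells between 144 and 0 h, Itga1, Itga7 and Lamc3 had log2 ratios of 0.71, 0.66 and 0.64 with at least 5000 UMIs per cell. Nid1 in Sertoli-like cells had 0.38 to 2.98 between 144 and 0 h over the settings, and Lamb2 2.04 to 2.33. Values at 556.8 and 763.2 h rest on 42 to 107 myoid-like or Sertoli-like cells each, and Sertoli-like cells were shallowest at 350.4 h (median 1372 UMIs).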

Other observations

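Classes outside the 4 compared held basement membrane chains too. In endothelial-like cells (42 at 0 h and 53 at 144 h) Col4a1 had 1453 CPM at 144 h and 1664 CPM at 0 h, Col18a1 493 and 437 CPM, Col15a1 313 and 244 CPM, Lama4 247 and 196 CPM, and Itga6 145 and 249 CPM. Each of these lay within 2-fold between the libraries. At 0 h 107 cells in clusters given no name had 7289 CPM of Col1a1, 6860 CPM of Col3a1 and 172 CPM of Col12a1, a fibril-associated collagen that stayed under 20 CPM in the 4 classes; these values were picked after they were seen.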
